A study of Mus musculus with 4 samples.

Results

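Ribosomal protein genes of cultured mouse hair follicle stem cells (HFSCs) were examined in RNA-seq data of cells at an early and a late passage. The genes were chosen by symbol (Rpl or Rps followed by a number, Rplp0 to Rplp2, and Rpsa), with pseudogenes named -ps and the Rps6k kinases left out and paralogs kept. The symbol rule used no measured value, although it was set with earlier results of these data known. Of the 24346 genes listed 83 were members, 51 of the large (60S) subunit and 32 of the small (40S) subunit.

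HFSCs were epithelial cells that the study sorted from dorsal skin of 4-week-old adult C3H/HeN mice by CD49f and CD34, and passaged about weekly in the serum-free medium M-CnT. Polyadenylated RNA of HFSCs after 10 passages (10p-HFSCs, 2 libraries) and after 48 passages (48p-HFSCs, 2 libraries) was sequenced. No agent or genetic change separated the groups, and all the cells shared the strain and the medium. The labels do not say whether the 2 libraries of a group came from separate cultures or mice, so the spread between them may be technical. Values are FPKM, a fragment count scaled by transcript length and by a factor for each library, so that genes can be compared.

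The cytosolic ribosome is built in the nucleolus from ribosomal RNA and about equal numbers of each ribosomal protein. Vertebrate ribosomal protein mRNAs begin with a cytosine and a stretch of pyrimidines, the 5′ terminal oligopyrimidine (TOP) tract, through which mTORC1 and the RNA-binding protein LARP1 control their translation. Stem cells of the hair follicle are known for low protein synthesis at rest, and growing cells put a large share of their mRNA into ribosomal proteins.

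The starts of 5 members that differed in behavior between the groups, or were the most abundant, are shown to let the tract be seen. Each line holds 30 bases around a RefSeq transcript start in GRCm38.p6, with 10 bases before the start base, and the longest run of pyrimidines (C or T) near the start is in capitals.
Rps12: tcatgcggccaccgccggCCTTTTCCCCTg
Rpl22l1: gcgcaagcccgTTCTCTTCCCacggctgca
Rpl28: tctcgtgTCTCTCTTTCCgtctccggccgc
Rpl38: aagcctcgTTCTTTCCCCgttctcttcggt
Rpl41: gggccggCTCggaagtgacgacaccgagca
These lie at chr10:23787190-23787219 (minus strand) for Rps12, chr3:28805498-28805527 (plus) for Rpl22l1, chr7:4792955-4792984 (plus) for Rpl28, chr11:114668570-114668599 (plus) for Rpl38 and chr10:128549149-128549178 (minus) for Rpl41. A RefSeq start was found for 62 of the 83 members. A run of at least 8 pyrimidines on the transcript strand, overlapping the 10 bases on either side of the start, was present in 29 of these 62 (46.8%), against 17.0% of the 8457 genes tested that had a start and 16.2% of all 17191 with one. The Rpl41 window held no such run, although Rpl41 was the most abundant member, and annotated starts can lie some bases away from the ones used in these cells.

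Ribosomal protein genes were among the most abundant mRNAs in both groups. Of the 10 genes with the highest mean FPKM 7 were members, and of the 100 highest 65 were. Their part of all FPKM summed was 27.8% in replicate 1 and 35.0% in replicate 2 at passage 10, compared with 30.2% and 44.2% in the same order at passage 48. Replicate 2 of 48p-HFSCs stood above the other libraries, and replicate 1 of 48p-HFSCs lay between the 10p-HFSC libraries. The share was 31.4% ± 5.06 in 10p-HFSCs and 37.2% ± 9.85 in 48p-HFSCs (SD, n = 2 each), a difference of 5.79 percentage points that was smaller than the spread within 48p-HFSCs (two-sided exact permutation test, p = 0.667, where 2 libraries against 2 cannot go below 0.333). The difference was -1.18 points without replicate 2 and 12.8 without replicate 1 of 48p-HFSCs, and 2.21 without replicate 1 and 9.37 without replicate 2 of 10p-HFSCs.

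**Figure D1:**
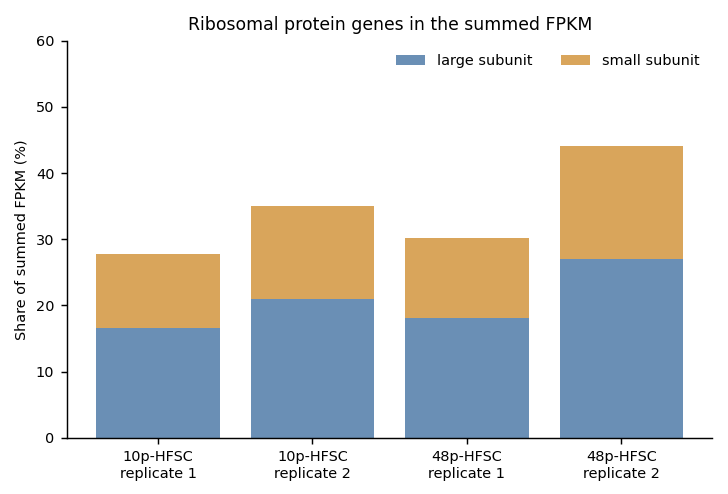
Share of the summed FPKM (percent) taken by ribosomal protein genes in each of the 4 libraries, stacked by subunit. Replicate 2 of 48p-HFSCs reaches 44.2%, and the other libraries lie between 27.8% and 35.0%.

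Both subunits followed the same order of libraries. Large subunit genes held 16.6% and 20.9% of the summed FPKM in the 10p libraries against 18.1% and 27.0% in the 48p libraries. Small subunit genes held 11.2% and 14.1% at passage 10, compared with 12.1% and 17.2% at passage 48. The small subunit sum was therefore a nearly fixed percentage of the large subunit sum, 67.8% and 67.4% in the 10p libraries against 66.9% and 63.7% in the 48p libraries, lowest in the library with the highest share (exact permutation test, p = 0.333, the smallest possible).

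Replicate 2 of 48p-HFSCs also stood apart in other measures. The median member FPKM was 1759 and 2596 in the 10p-HFSC libraries and 2105 followed by 6386 in the 48p-HFSC libraries, whereas the median of all genes tested stayed between 11.2 and 12.2. The FPKM summed to 581516, 719012 and 666018 in the first 3 libraries and to 1414953 in replicate 2 of 48p-HFSCs. Low FPKM values, which stand for single reads, show the factor by which each library was divided. For this library the factor was 46.7% of that of replicate 1 of 10p-HFSCs. It was 71.6% for replicate 2 of 10p-HFSCs and 82.9% for replicate 1 of 48p-HFSCs. The deposited FPKM were scaled to a common median, so this factor need not follow the number of reads, which is not known. Across all genes with a length, the log2 difference of replicate 2 minus replicate 1 of 48p-HFSCs was correlated with log2 transcript length at r = -0.39, so short transcripts read higher in replicate 2, and members were short (median 832 bases, against 2848 for all). Within the 80 members the same correlation was -0.26. The 10p-HFSC libraries showed a like trend over all genes (r = -0.50), and the part of length in the ribosomal protein levels was tested only by the length and GC correction given beside the group medians.

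The cells carried basal keratinocyte mRNAs but almost no Cd34 mRNA. Krt5 and Krt14 were at 1217 FPKM or more in every library, and Itga6, which encodes CD49f, was at 20.8 or more. Of the other follicle stem cell markers, Sox9 was at 45.6 and 44.2 in the 10p libraries against 20.2 and 8.31 in the 48p libraries, and Krt15 at 136 and 82.6 against 425 and 18.8. Cd34 was at most 0.234 and Lhx2 at most 0.024 in every library, although the cells were sorted on CD34 protein. The summed FPKM of 6 fibroblast markers was 353 and 388 in 10p-HFSCs, nearly all of it Vim and Col1a2, and 2.50 and 3.32 in 48p-HFSCs. The sum of 5 leukocyte markers was 0.641 and 0.694 at passage 10, compared with 64.3 and 104 at passage 48, nearly all of it Cd74, with Cd3e and Tyrobp at 0. Within 48p-HFSCs, replicate 2 had less Krt15 and Sox9 than replicate 1, and its sum of 4 melanocyte markers was 10.8 against 2.15, most of it Tyr. The part of these markers in the ribosomal protein values was not tested. In bulk RNA, fewer cells of a type and less RNA per cell cannot be told apart.

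Between 10p- and 48p-HFSCs, 1 ribosomal protein gene was called lower and none was called higher. The groups were compared with limma on log2(FPKM + 1) over the 11018 genes that reached an FPKM of 1 in 2 or more libraries, and a gene was called at a Benjamini-Hochberg adjusted p under 0.05 and a log2 difference of at least 1 in size. Of the 83 members 80 were tested, 0 were called higher and 1, Rps4l, was called lower, whereas 10.8% of all genes tested were called higher and 9.15% lower, 19.9% in either direction. At an unadjusted p under 0.05 there were 3 members (Rps4l, Rpl7l1 and Rpl22), against 37.4% of all genes. Abundant members had a large SE in this fit, at 1.18 for Rpl28, 1.15 for Rps4x and 2.23 for Rpl41. A log2 difference of 1 could not pass at such an SE, so few calls do not show that members were stable. With a constant prior the SE of Rps4x was 0.49, and the counts were also 0 and 1. The count of 0 higher changed to 4 of 80 after rescaling to TPM, where 623 of all 11018 genes were called higher. After quantile normalization it changed to 2 of 80, where 1286 of all genes were called higher.

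The level of the group as a whole was set by 1 library. The median log2 difference (48p minus 10p) over the 80 members was 0.75, with quartiles at 0.42 and 1.03 and 71 members above 0, compared with -0.03 over all genes tested. Set against the 10p mean, the median member was at -0.03 in the first 48p library and at 1.51 in the other. The median was 0.69 for the 48 large subunit genes tested and 0.82 for the 32 small subunit genes. Without replicate 2 of 48p-HFSCs the median of all members was -0.03, with each library corrected for the length and GC of transcripts it was 0.20, and after quantile normalization it was -0.02. Rescaling to TPM moved the median of all genes to -0.56 and that of the members to 0.16.

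The 48p-HFSC replicates differed from each other by more than the groups did. The median member was 1.49-fold higher in replicate 2 than in replicate 1 of 10p-HFSCs and 2.97-fold higher in replicate 2 than in replicate 1 of 48p-HFSCs, where 78 of the 80 members were higher in replicate 2. FPKM of all 4 libraries did not overlap between the groups for 13 members that were higher in 48p-HFSCs and 3 that were lower (Rpl22l1, Rpl7l1 and Rps4l), while 31.7% of all genes were higher and 34.3% lower without overlap.

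**Figure D2:**
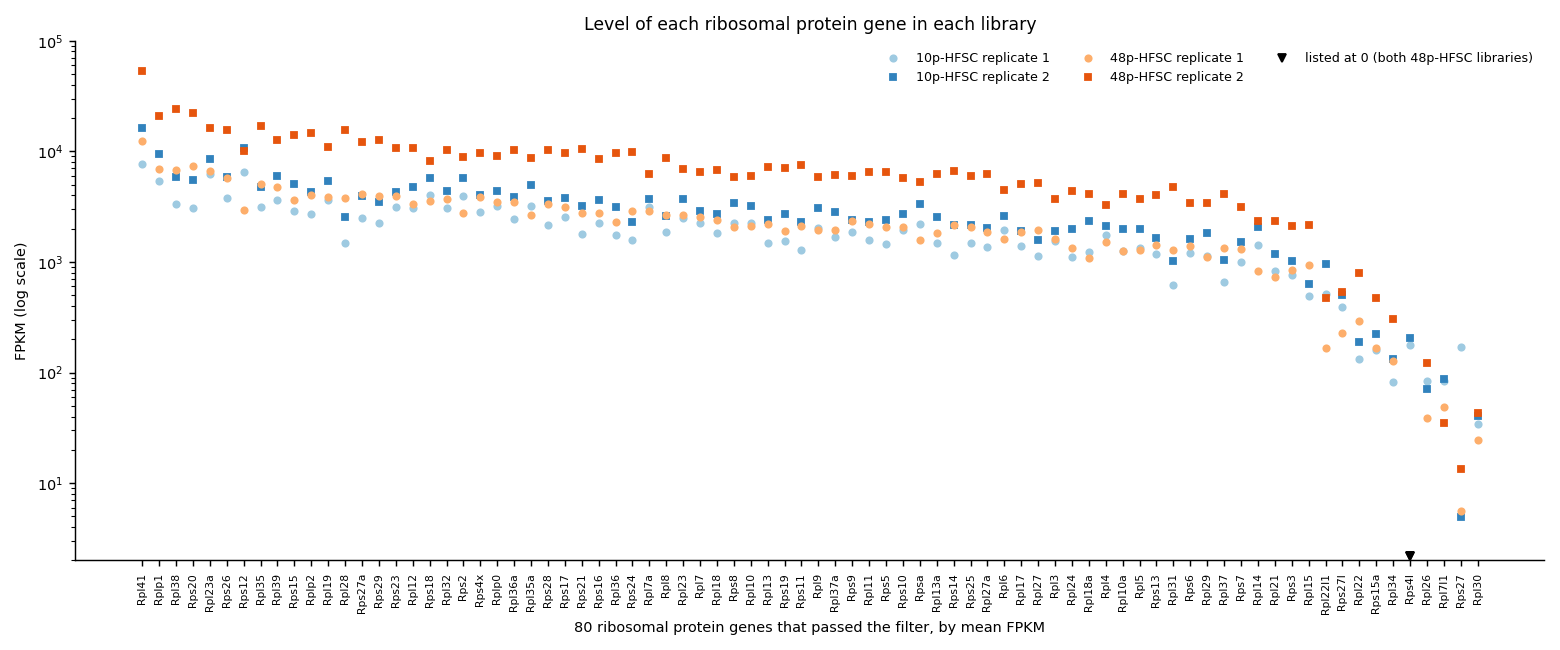
FPKM (log scale) of the 80 ribosomal protein genes tested in each of the 4 libraries, ordered by mean FPKM, with a triangle where both 48p-HFSC libraries list 0. Replicate 2 of 48p-HFSCs lies above the other libraries at most genes, and a tail of members lies far under the median.

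Rps4l, the gene that fell, was on in both 10p-HFSC libraries and listed at 0 in both 48p-HFSC libraries. It is a copy of Rps4x, the X-linked gene of the small subunit protein eS4, and lies at chr6:148354656-148355598 (GRCm38, plus strand) as a single exon of 943 bases that GENCODE release M21 classes as a transcribed processed pseudogene. Its FPKM was 176 and 206 in 10p-HFSCs and 0 in both 48p-HFSC libraries. The log2(FPKM + 1) difference was -7.58 (SE 0.26, adjusted p from limma = 0.00048), a value that depends on the pseudocount, and the gene passed the filter through the 10p-HFSC libraries alone, so it had to differ. Rps4x was at 2809 and 4009 in the 10p libraries against 3887 and 9654 in the 48p libraries, a log2 difference of 0.87 with an adjusted p of 0.61 in limma. Rps4l thus read at 6.28% and 5.14% of Rps4x in 10p-HFSCs. The aligned transcripts were 79.7% identical over 847 columns, with no shared stretch above 38 bases, and only 1.54% of the read-length windows of Rps4l occurred in another annotated transcript, named Rps4l-ps.

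The pair Rpl22 and Rpl22l1 exchanged ranks between the groups. RPL22 is a large subunit protein that mice can live without, and RPL22L1 is a paralog that can take its place in the ribosome. Rpl22 was at 132 and 188 FPKM at passage 10, compared with 294 and 802 at passage 48. Rpl22l1 was at 517 and 967 in the 10p libraries against 166 and 476 in the 48p libraries. Both 48p-HFSC libraries were above both 10p-HFSC libraries for Rpl22 and below them for Rpl22l1. Rpl22l1 accounted for 79.7% and 83.7% of the summed FPKM of the pair in 10p-HFSCs and for 36.1% and 37.2% in 48p-HFSCs. The ratio of Rpl22l1 to Rpl22 was thus 3.93 and 5.15 at passage 10, compared with 0.565 and 0.594 at passage 48, a separation much wider than the spread within either group (exact permutation test, p = 0.333, the smallest possible). The annotated transcripts differ in length, 2051 bases for Rpl22 and 552 for Rpl22l1. With each library corrected for length and GC, the log2 difference was 1.56 for Rpl22 and -1.98 for Rpl22l1. As deposited, these were 1.62 and -1.33. The ratio itself was not corrected for length.

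Neither gene of that pair was called by itself on FPKM as deposited. The log2 difference was 1.62 (SE 0.56, adjusted p from limma = 0.094) for Rpl22 and -1.33 (SE 0.64, adjusted p from limma = 0.191) for Rpl22l1. Both passed after rescaling to TPM (log2 differences 1.04 and -1.91, adjusted p from limma = 0.028 and 0.00093) and after quantile normalization (1.12 and -1.91), and Rpl22l1 also after the length and GC correction (-1.98, adjusted p from limma = 0.018). Without replicate 1 of 48p-HFSCs Rpl22 passed at 2.34. No read-length window of Rpl22 occurred in another gene, while 40.3% of those of Rpl22l1 also occurred in the gene Gm15421, so reads from these windows have a second exact match.

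**Figure D3:**
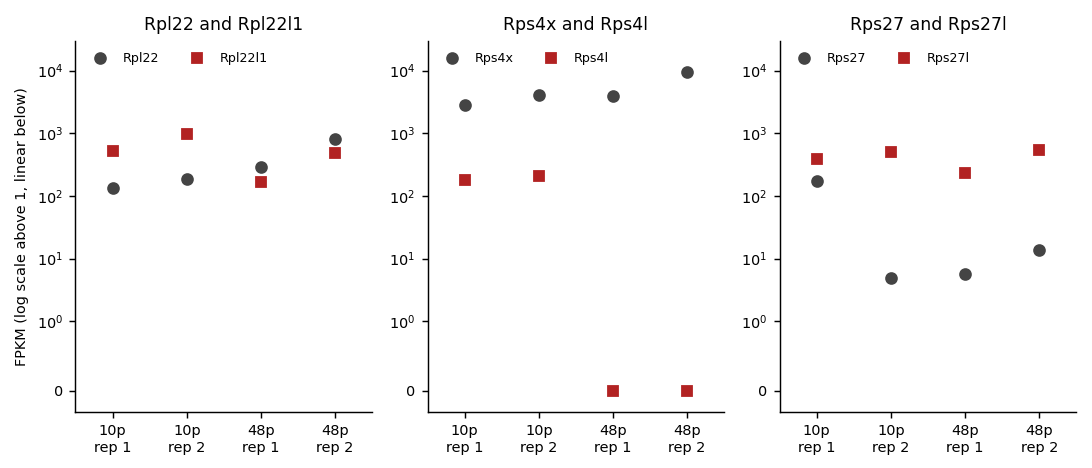
FPKM (log scale above 1, linear below) of 3 pairs of paralogs in each library, 10p for 10p-HFSC and 48p for 48p-HFSC. Rpl22l1 lies above Rpl22 in both 10p-HFSC libraries and below it in both 48p-HFSC libraries, Rps4l is at 0 in both 48p-HFSC libraries, and Rps27 is low in all but replicate 1 of 10p-HFSCs.

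The other paralogs ranged from 0 to 535 FPKM. Rpl10l and Rpl39l, known from the testis, were listed at 0 in all 4 libraries, and Rpl3l, known from muscle, was listed at 0 in 3 libraries and at 0.14 in replicate 1 of 48p-HFSCs. Their partners Rpl3, Rpl10 and Rpl39 were at 1554 to 12676 FPKM over the 4 libraries. Rpl7l1, a relative of Rpl7 that acts in the nucleolus, was at 83.4 and 87.3 in the 10p libraries against 48.6 and 34.7 in the 48p libraries, lower in both (log2 difference -1.04, SE 0.28, adjusted p from limma = 0.051). Rps27l, a paralog of Rps27 that p53 activates, was at 391 and 499 at passage 10, compared with 229 and 535 at passage 48, and the groups overlapped.

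Rps27 could not be measured well from these values. Its FPKM was 171 and 4.94 in the 10p libraries against 5.59 and 13.6 in the 48p libraries, so that replicate 1 of 10p-HFSCs alone gave it the second largest decrease among members (log2 difference -1.71, SE 1.48, adjusted p from limma = 0.436), and without that library the difference was 0.72. Of its read-length windows 98.4% also occurred in another gene. Rps27rt, a retrotransposed copy that was looked up after these values were seen, was at 2394 and 4775 at passage 10, compared with 3067 and 10668 at passage 48, a level like that of the other ribosomal protein genes.

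Of the 80 members tested, besides Rps27 and Rps4l, 6 read under 20% of the member median in every library, namely Rpl22, Rpl26, Rpl30, Rpl34, Rpl7l1 and Rps15a. Rpl30 had the lowest mean FPKM of the tested members, at 34.5 and 40.7 FPKM in the 10p libraries against 24.3 and 43.0 in the 48p libraries. It was thus at 0.674% to 1.96% of the member median, although it encodes an essential protein of the large subunit. Over the 83 members the median share of read-length windows that another gene also holds was 31.6%, with 9 members at 0 and 28 above 50%. For the low members this share was 19.3% for Rpl30, 22.1% for Rpl34, 35.9% for Rpl26 and 2.99% for Rps15a, so most of their windows were unique. How reads that map to several genes were counted is not given in the sources used here.

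The most abundant members were Rpl41, Rplp1, Rpl38, Rps20 and Rpl23a. Rpl41, which encodes the smallest ribosomal protein, was at 7697 and 16213 FPKM at passage 10, compared with 12367 and 53259 at passage 48. Rpl23a, whose product lies at the exit of the peptide tunnel, was at 6245 and 8589 in the 10p libraries against 6574 and 16153 in the 48p libraries. For both, replicate 1 of 48p-HFSCs lay between the 10p-HFSC libraries.

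The P stalk, which recruits elongation factors to the large subunit, had its highest level in replicate 2 of 48p-HFSCs. Rplp0, its base, was at 3234 and 4409 FPKM at passage 10, compared with 3481 and 9007 at passage 48. Rplp1 was at 5401 and 9499 in the 10p libraries against 6893 and 20969 in the 48p libraries. Rplp2 was at 2739 and 4314 at passage 10, compared with 4010 and 14522 at passage 48. The groups overlapped for all 3 genes, and their log2 differences of 0.57, 0.75 and 1.15 had adjusted p values of 0.746, 0.764 and 0.546 in limma.

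Members that bind MDM2 outside the ribosome, and so slow the turnover of p53, also overlapped between the groups. Rpl5, which with Rpl11 carries the 5S rRNA, was at 1333 and 1983 FPKM in the 10p libraries against 1283 and 3730 in the 48p libraries. Rpl11 was at 1565 and 2284 at passage 10, compared with 2196 and 6507 at passage 48. Rpl23 was at 2502 and 3703 in the 10p libraries against 2651 and 6946 in the 48p libraries. In each case replicate 2 of 48p-HFSCs was the highest library and replicate 1 lay below replicate 2 of 10p-HFSCs.

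Members with other known roles mostly overlapped too. Rps6, the substrate of the S6 kinases, was at 1215 and 1626 FPKM at passage 10, compared with 1387 and 3418 at passage 48. Rps19, mutated in Diamond-Blackfan anemia, was at 1548 and 2725 in the 10p libraries against 1915 and 7002 in the 48p libraries. Rps27a, translated as a fusion with ubiquitin, was at 2510 and 3974 at passage 10, compared with 4077 and 12220 at passage 48, the only one of these 3 with no overlap. Rpsa, also known as the laminin receptor precursor, was at 2181 and 3365 in the 10p libraries against 1569 and 5329 in the 48p libraries, its lowest and its highest value in the 2 libraries of 48p-HFSCs.

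Although the overall level was set by 1 library, the balance among ribosomal protein mRNAs was shared by replicates. Over the 80 members, the interquartile range of log2 differences was 0.23 between the 10p-HFSC libraries and 0.31 between the 48p-HFSC libraries, while it was 0.54 to 0.74 for the 4 pairs of libraries from different groups. Across members, which are not independent replicates, Pearson's r of log2(FPKM + 1) was 0.95 within 10p-HFSCs, 0.99 within 48p-HFSCs and 0.86 to 0.90 between the groups. These r include Rps4l, which had to differ between the groups, and the poorly measured Rps27. Because r was not computed without them, it cannot show by itself that replicates shared a balance. The FPKM of each gene was therefore also divided by the median of the tested members in its library, a scaling that was chosen after the values were seen and that moved the median log2 difference of all genes to -0.69.

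On this relative scale Rps12 and Rpl14 were lower, and Rpl28, Rps20 and Rpl38 higher, in both 48p-HFSC libraries. Rps12, a small subunit protein near the beak of the 40S subunit, was 3.68 and 4.13 times the member median at passage 10, compared with 1.41 and 1.58 times at passage 48. Its FPKM, 6479 and 10727 in the 10p libraries against 2965 and 10092 in the 48p libraries, overlapped between the groups. Of the Rps12 windows 81.4% also occurred in other annotated genes. Rpl14, of the large subunit, was at 0.808 and 0.792 of the median at passage 10, compared with 0.393 and 0.363 at passage 48. Rpl14 and the genes Rps2, Rps18, Rpl15, Rpl37, Rpl35a, Rps24, Rps29, Rpl35 and Gm15421 are named although they were chosen after their values were seen.

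Rpl28, a large subunit protein with no bacterial counterpart, was at 0.838 and 0.975 of the member median in the 10p libraries against 1.78 and 2.44 times the median in the 48p libraries. Its FPKM was 1474 and 2532 at passage 10, compared with 3749 and 15563 at passage 48, the largest increase among the members, with a log2 difference of 1.98 (SE 1.18, adjusted p from limma = 0.268). Rps20, of the 40S head, was at 1.73 and 2.14 times the median in the 10p libraries against 3.53 and 3.48 times in the 48p libraries. Rpl38, which mouse embryos need for the translation of Hox mRNAs, was at 1.92 and 2.26 times the median at passage 10, compared with 3.19 and 3.74 times at passage 48. Rpl31, near the peptide exit, was at 0.353 and 0.390 of the median in the 10p libraries against 0.606 and 0.745 in the 48p libraries. All 4 genes were higher in both 48p-HFSC libraries than in both 10p-HFSC libraries, on this scale and in FPKM.

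Rps2, which lines the entry of the mRNA channel, was lower on the relative scale, at 2.25 and 2.21 times the member median at passage 10, compared with 1.32 and 1.40 times at passage 48. Windows that also occurred in other annotated genes made up 64.5% for Rps2, 56.5% for Rps18 and 36.7% for Rpl14. Rpsa was at 1.24 and 1.30 times the median in the 10p libraries against 0.745 and 0.834 in the 48p libraries. Of the members named for their roles, the relative log2 difference was -0.21 for Rplp0, -0.03 for Rplp1, 0.37 for Rplp2, -0.35 for Rpl5, 0.22 for Rpl11, -0.28 for Rpl23, -0.15 for Rps6, 0.06 for Rps19 and 0.38 for Rps27a, and none of these 9 passed.

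**Figure D4:**
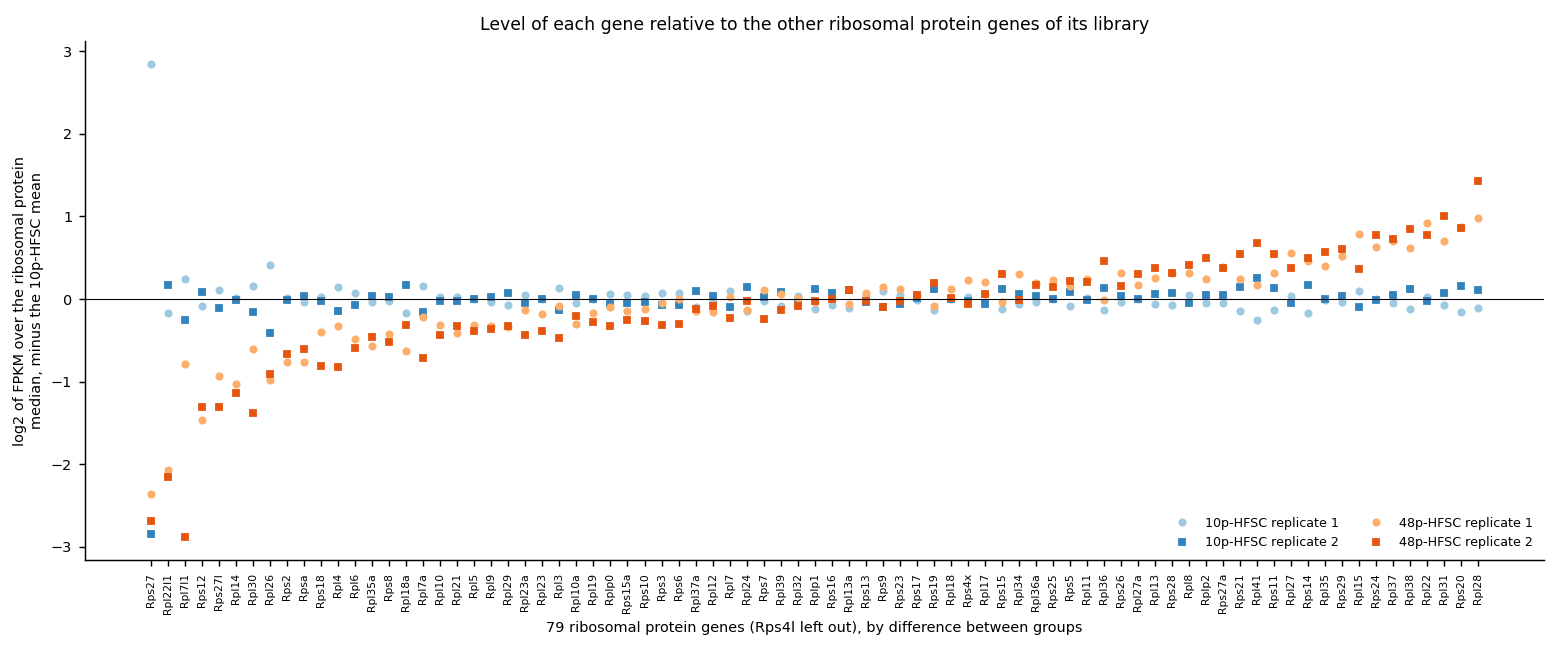
log2 of FPKM over the ribosomal protein median of each library, minus the mean of the 10p-HFSC libraries, for 79 ribosomal protein genes ordered by the difference between groups (Rps4l left out). The 48p-HFSC libraries lie together at both ends of the order, at Rps12, Rpl22l1 and Rpl14 on the left and Rps20 and Rpl28 on the right, and Rps27 is scattered.

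Fitted over all 11018 genes on the relative scale, limma called Rpl28 higher and Rps4l, Rpl22l1, Rps12 and Rpl14 lower, 1 and 4 members, against 3.56% and 3.97% of all genes. Without the limit on the log2 difference, 8 members were higher and 8 lower (background 3.65% and 4.08%). The higher ones were Rpl28, Rps20, Rpl31, Rpl38, Rps24, Rps29, Rpl35 and Rpl41, and the lower ones added Rps2, Rpsa, Rps18 and Rpl35a to the 4 called. After length and GC correction Rpsa (-0.20), Rpl41 (0.22), Rps29 (0.39), Rpl35 (0.49) and Rpl35a (-0.56) no longer passed, with adjusted p from limma of 0.65, 0.44, 0.28, 0.069 and 0.067 in that order. The correction also brought Rpl22 (1.38), Rpl15 (1.07), Rpl37 (0.81), Rps27l (-1.16) and the poorly measured Rps27 (-2.62) under 0.05. With the limit on the log2 difference, 6 members were then called higher and 5 lower. Libraries did not overlap on this scale for 27 members that were higher and 31 that were lower, beside 11.0% and 36.6% of all genes. Median relative log2 differences were -0.09 for the large and 0.04 for the small subunit.

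These relative calls rest on how the spread is estimated. The scaling was built from the members themselves, and members made up most of the highly expressed genes from which the fit takes the spread at that level. With a constant prior in place of the trend, 0 members were higher and 2 lower, Rps4l and the poorly measured Rps27, and the adjusted p from limma was 0.32 for Rps12, 0.40 for Rpl28, 0.45 for Rpl14 and 0.10 for Rpl22l1. Leaving out a library gave 0 to 2 members higher and 1 to 7 lower.

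Members with and without a pyrimidine run at the annotated start had similar medians. The 29 members with a run of at least 8 had a median log2 difference of 0.80 and the 30 tested members with a shorter run 0.71, and on the relative scale the medians were 0.02 and -0.07. Rps12 and Rpl28, which lay at opposite ends of the relative order, both had a run of 11 pyrimidines, and Rpl22l1 had one of 10.

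Genes that work with ribosomal proteins were counted in lists written with earlier results of these data known. Fau, which the symbol patterns missed and which encodes a ubiquitin-like fusion with the small subunit protein eS30, was at 1512 and 2647 FPKM at passage 10, compared with 2696 and 9051 at passage 48.

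Translation factors and other genes with TOP mRNAs had no calls on FPKM as deposited. None of the 16 passed, against 19.9% of all genes tested, and 1 was at an unadjusted p under 0.05 in limma, against 37.4%. Quantile normalization gave 2 called lower, beside 1261 of all 11018 genes. Rescaling to TPM gave 1 called lower, beside 812 of all genes, and a list median of -0.02. On FPKM as deposited the list median was 0.56, and over the 10p mean it was 0.16 in the first 48p library and 0.99 in the other. Tpt1, a TOP mRNA for a growth-linked protein, had the largest positive value at 1.41 (adjusted p from limma = 0.384), followed by the initiation factor subunit Eif3f at 1.36. The largest negative values were those of Nap1l1 at -0.58 and of the elongation factor Eef2 at -0.15.

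Ribosome biogenesis genes were in part called lower in 48p-HFSCs. Of 47 genes that make, modify and process ribosomal RNA or assemble the subunits, 10 fell and 0 rose in 48p-HFSCs, with a median log2 difference of -0.52 against -0.03 for all genes. The share called lower can be set beside the 9.15% of all genes called lower. Unlike the members, the list had like medians in both 48p-HFSC libraries, -0.54 in replicate 1 and -0.48 in replicate 2. The 10 genes were Dkc1, Nop56, Nop58, Nolc1, Rrs1, Nip7, Ltv1, Utp20, Wdr43 and Ubtf.

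Dkc1, the pseudouridine synthase of box H/ACA particles, was at 43.9 and 35.4 FPKM at passage 10, compared with 11.5 and 7.89 at passage 48 (log2 difference -1.94, SE 0.29, adjusted p from limma = 0.0088). Nolc1, a nucleolar chaperone of small nucleolar RNPs, was at 102 and 94.2 in the 10p libraries against 36.5 and 40.6 in the 48p libraries. Nop56, a core protein of box C/D particles, was at 114 and 121 at passage 10, compared with 41.7 and 55.4 at passage 48. Ubtf, the factor that binds active ribosomal DNA for RNA polymerase I, was at 31.4 and 30.1 in the 10p libraries against 13.5 and 12.2 in the 48p libraries. At each of these 4 genes the 48p-HFSC libraries were below the 10p-HFSC libraries, which their selection as called genes made likely. Of all genes tested 34.3% were lower without overlap. The largest positive values of the list were those of Nhp2 at 1.18 (adjusted p from limma = 0.202) and Taf1d at 0.79.

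The count of 10 lower was 12 with quantile normalization, 8 after the length and GC correction, 7 with a constant prior and 6 after rescaling to TPM. It was 7 without replicate 2 of 48p-HFSCs, and 12 lower with 2 higher without replicate 1. It was 0 without a filter on low FPKM, where the adjustment ran over all 24346 genes. It was also 0 without either 10p-HFSC library and on the relative scale, although the list median was then -0.47 and -0.61 without replicate 1 and replicate 2 of 10p-HFSCs, and -1.20 on the relative scale with 45 of 47 genes negative. The scaling itself moved the median of all genes tested to -0.69. On the relative scale without replicate 1 of 48p-HFSCs, the list median was -1.74 and that of all genes -1.34. None of 8 regulators of ribosomal protein synthesis was called, against 19.9% of all genes tested. An unadjusted p under 0.05 in limma was reached by 2, against 37.4% of all genes. Eif4ebp2, whose product is a target of mTORC1, was the lowest at -1.04 (adjusted p from limma = 0.132), followed by the S6 kinase gene Rps6kb1 at -0.96 (adjusted p from limma = 0.054). Their paralogs had the largest positive values, Rps6kb2 at 0.55 and Eif4ebp1 at 0.27. Of the 8 regulators 4 were positive and 4 negative, with a median of 0.04. Myc, which drives ribosome biogenesis genes, was at 67.5 and 69.1 FPKM at passage 10, compared with 68.0 and 86.0 at passage 48, and the groups overlapped.

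**Figure D5:**
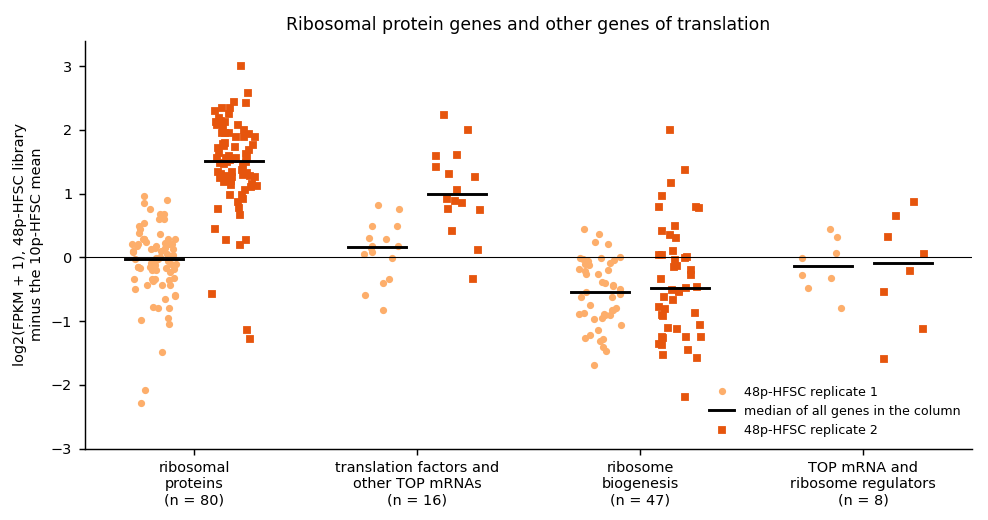
log2(FPKM + 1) of each 48p-HFSC library minus the mean of the 10p-HFSC libraries, one point per gene, for ribosomal protein genes and 3 lists, with the median of each column as a bar. 2 points (Rps4l in both libraries) lie below the axis, the medians of ribosomal proteins are -0.03 and 1.51, and those of ribosome biogenesis are -0.54 and -0.48.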

How the data were processed

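RNA-seq of 2 libraries of 10p-HFSCs and 2 of 48p-HFSCs was analysed, grouped by the passage number and replicate in the labels. The deposited values are FPKM, one per gene symbol and library, which the authors made from single-end reads of a stranded mRNA library mapped to mm10. The submitters' processing notes name TopHat2 2.1.1, Bowtie2 2.2.8, SAMtools 0.1.18 and Cuffdiff 2.2.1, and the methods text gives other versions of Bowtie2 and SAMtools. Gene annotation, strand setting and treatment of reads with several matches are not given in the sources used here. Median-of-ratios factors of the deposited FPKM were 1.00 to 1.01, so they were already scaled to a common median.

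The 11018 genes that reached an FPKM of 1 in 2 or more libraries were compared on log2(FPKM + 1), whose fold changes understate those of low genes, by limma 3.58.1 in R 4.3.3 (lmFit, eBayes with a trend), two-sided, with Benjamini-Hochberg adjustment over all genes tested. Calls needed an adjusted p under 0.05 and a log2 difference of at least 1 in size. The study's test of counts could not be run on FPKM. The fit was checked on simulated data. Shares and ratios of 1 value per library were compared by exact permutation tests.

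Members and lists were chosen with earlier results of these data known. Genes named are 7 pairs of paralogs, members with set roles, members called, the 5 highest and lowest by mean FPKM, the 5 largest increases and decreases, and of the other lists the called genes and the 2 largest differences in each direction; exceptions are named in the text, and Fau and Myc were chosen after their values were seen. Transcript lengths, GC content, shared windows of read length and positions came from GENCODE M21 (GRCm38, the assembly of mm10), in which all 83 members were found, and starts from RefSeq (GRCm38.p6). Read totals are not part of FPKM, and neither intervals for counting error nor floors could be computed. The relative depth is the inverse of the most common ratio between FPKM values under 0.3. Alternatives were another pseudocount, filters, scalings, a length and GC correction by splines with 4 degrees of freedom, the replicate block, a constant prior, other limits, and each library left out. The list of ribosomal protein genes that the symbol patterns missed is not reported here. Scaling to the ribosomal protein median was added after the values were seen. Other computations used Python 3.11.15.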

Additional observations from a re-analysis of the deposited data

How the results depend on the processing

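Calls over all genes were 1189 higher and 1008 lower at passage 48. The counts were 116 and 114 without a filter, 623 higher after rescaling to TPM, 392 and 437 after scaling to the ribosomal protein median, and 35 to 1936 higher and 140 to 1875 lower with 1 library left out. Both low counts came without a 10p-HFSC library, and the lone library of a group was then assumed to vary like the others.

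Ribosomal protein genes called higher numbered 0 as reported, 4 under TPM, 2 under quantile normalization, 1 with the replicate block, with the block plus length and GC correction, after scaling to the ribosomal protein median or at an adjusted p under 0.1, and 0 to 6 with 1 library left out (6 without replicate 1 of 48p-HFSCs). Those called lower numbered 1 as reported, 4 under TPM or the ribosomal protein scaling, 5 under quantile normalization, 2 with a pseudocount of 0.1, after length and GC correction or at an adjusted p under 0.1, 3 with the block with or without that correction, and 1 to 2 with 1 library left out. On the relative scale 1 was higher and 4 lower. These became 6 higher after length and GC correction, 7 lower with the block, 0 and 2 with a constant prior, 8 and 8 without the limit on the log2 difference, and 0 to 2 and 1 to 7 with 1 library left out.

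Rps4l, which passed the filter through the 10p-HFSC libraries alone, lost its call on the relative scale without replicate 1 of 10p-HFSCs (adjusted p from limma = 0.051). The medians turned negative in some: without replicate 2 of 48p-HFSCs (-0.03 for all members, -0.10 for the large subunit) and under quantile normalization (-0.02 and -0.08).

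Single genes that changed sign were, with 1 library left out, Rps27 (-4.14 to 0.72, positive without replicate 1 of 10p-HFSCs, and -5.16 to 0.28 on the relative scale), Rps27l (-0.95 to 0.28) and Rps12 (-1.49 to 0.28), both positive without replicate 1 of 48p-HFSCs. On the relative scale they were Rplp1 (-0.16 to 0.095), Rps6 (-0.30 to 0.0017), Rps19 (-0.079 to 0.19) and Rps4x (-0.055 to 0.23) with 1 library left out, and Rplp0 (0.015), Rps19 (-0.021) and Rpl5 (0.18) after length and GC correction. The cause was not tested.

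Same-numbered libraries deviated together (correlation of deviations from the group means 0.41 over all genes and 0.31 over members), but with 2 pairs and no shared origin in the labels the numbers are not shown to pair the samples. The replicate block raised the calls to 1613 higher and 1497 lower, under 1.5 times the counts without it, and the members it called were Rpl22 (higher) and Rpl22l1, Rpl7l1 and Rps4l (lower). Of the other lists it called 1 biogenesis gene higher and 12 lower (15 lower on the relative scale), 2 translation genes higher and 1 regulator, Eif4ebp2, lower. The lower dividing factor of replicate 2 of 48p-HFSCs makes a single read weigh more in FPKM, which limits low members more than abundant ones.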
